A study of Homo sapiens with 6 samples.

Results

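The deposited list of m6A peaks from TE-10 cells assigns each of its 15940 regions to 1 of 6 location classes, and 253 of them (1.59%, 95% Wilson interval 1.40 to 1.79) carry the class Downstream, which places the peak beyond the annotated end of its host gene. Every row of that class was taken, with no further selection, and no measured strength entered the choice. The 253 peaks belonged to 240 host symbols and covered 105568 of the 6429067 bases (1.64%) under all peaks. How far past an end the annotation still assigned a peak to a gene is not given in the sources used here.

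TE-10 is an established human line of squamous cells from the esophagus. The study made RNA-seq from 2 libraries of TE-10 cells with stable shRNA knockdown of METTL3 and from 1 control library of TE-10 cells with normal METTL3. The knockdown libraries, whose titles end in sh1 and sh2, are here called knockdown 1 and knockdown 2. These endings are read as 2 different hairpins against METTL3. Methylated RNA immunoprecipitation was made from TE-10 cells labelled normal, with 2 immunoprecipitated libraries (m6A antibodies 202003 and 202004 of Synaptic Systems) and 1 input library. The word normal is the label's own and is not read here as describing healthy tissue. The single peak list names neither library, so no peak has a replicate check, peaks have no score to rank them by, and no peaks from METTL3 knockdown cells were analysed here.

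N6-methyladenosine is the commonest internal mark of mRNA. METTL3 catalyses its writing within a larger complex, and the mark is known for clustering in long internal exons, near stop codons and in 3′UTRs. RNA that maps beyond an annotated end can belong to a longer 3′UTR, to transcription that reads past the polyadenylation site, or to a neighbouring or enclosing transcript; the peak list holds nothing that tells these apart.

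MicroRNA genes were among the short hosts of the Downstream class. In all, 11 of its peaks were assigned to such genes, which are short hairpins cut out of longer transcripts. All 11 hairpins were matched in RefSeq (GRCh38.p14). Each of the 11 lay inside another RefSeq gene by position, with strand not considered. An enclosing gene is therefore not necessarily the transcript that holds the hairpin. The mature sequences below are those of the microRNAs whose hairpin fell inside the peak (miR-4641 and miR-1260b), and, by distance from hairpin end to peak centre, of the nearest hairpin outside the peak (miR-574) and of the farthest (miR-429, a member of the miR-200 family). Capitals mark the seed, bases 2 to 8, which pairs with targets; the 15 mature sequences of the 11 genes had 15 different seeds.
hsa-miR-4641: uGCCCAUGccauacuuuugccuca
hsa-miR-1260b: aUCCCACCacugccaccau
hsa-miR-574-5p: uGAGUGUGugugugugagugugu
hsa-miR-574-3p: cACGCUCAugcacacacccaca
hsa-miR-429: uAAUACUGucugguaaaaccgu

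The microRNA peaks were 220 to 679 bases wide, and each was longer than the hairpin it was named for. The MIR4641 peak (chromosome 6, 41566441 to 41566947, plus strand, as the file gives it) held all 66 bases of its hairpin, which lies within FOXP4, a forkhead transcription factor gene. The MIR1260B peak (chromosome 11, 96074604 to 96075283, plus strand) held 86 of 89 hairpin bases and lay within MAML2, a coactivator of Notch signalling. The other 9 peaks held no hairpin base, and the centres of all 11 lay 177 to 938 bases past the hairpin's end. MIR574, within the bounds of both TLR6 and FAM114A1, had its peak centre 266 bases past the hairpin. MIR429, in the host transcript of the miR-200b cluster, had it 938 bases past. MIR615 lay in the HOXC4 and HOXC5 locus, MIR1469 in NR2F2, an orphan nuclear receptor gene, and MIR762 in BCL7C, a subunit of chromatin remodelling complexes. The peak list gives MIR762 on the plus strand and BCL7C on the minus strand.

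The enclosing genes were read in the RNA-seq table, which does not list the microRNAs themselves. FOXP4 had a signal of 15.6 in knockdown 1 and 19.4 in knockdown 2, against 14.9 in the control. MAML2 was at 1.16 and 0.93 in the knockdown libraries, against 1.5 in the control, and carried 3 other peaks, all in coding exons. RABL6, the RefSeq gene around MIR4292, had 36.4 and 51.8 in the knockdown libraries, against 32.1 in the control, and carried 3 intron peaks. These levels show RNA from the enclosing genes; whether the peaks belong to those transcripts was not tested.

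Small RNA genes hosted a larger share of the Downstream peaks than of any other class. They carried 29 of the 253 Downstream peaks (11.5%, Wilson interval 8.10 to 16.0), namely 11 microRNA, 15 piRNA and 3 tRNA peaks, against 60 Upstream peaks (4.80%), 4 of 3423 3′UTR peaks (0.117%) and 1 of 5429 coding-exon peaks. The 11 hairpins were 47 to 96 bases long and no peak was narrower than 199, so such records leave little room inside for a peak. The contrast with classes inside the gene therefore cannot be told apart from record length. Messenger RNA records of RefSeq hosted 155 Downstream peaks (61.3%), against 83.4% of 3′UTR and 98.2% of coding-exon peaks. A further 42 Downstream peaks (16.6%) were hosted by cDNA or protein records with no RefSeq entry in the list, 16 by pseudogenes and 11 by other non-coding RNAs. Peaks are not replicates and intervals cover counting error only, so these are descriptions of 1 list. Gene types from RefSeq were found for 177 of the 240 hosts (73.8%), too few for a comparison of gene types between classes, which is void; 144 of the 177 were protein coding (81.4%, interval 75 to 86.4).

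Downstream peaks were of ordinary width. Their median was 318 bases (95% interval of the median 296 to 365, quartiles 243 and 527), against 349 for 3′UTR and 356 for coding-exon peaks, 299 for Upstream, 279 for intron and 246 for 5′UTR peaks. The Downstream interval contains the 3′UTR, coding-exon and Upstream medians. Peaks of at least 500 bases made up 27.7% of Downstream and 27.6% of 3′UTR peaks. The narrowest width in every class was 199 bases, and 12 Downstream peaks (4.74%) had it.

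**Figure D1:**
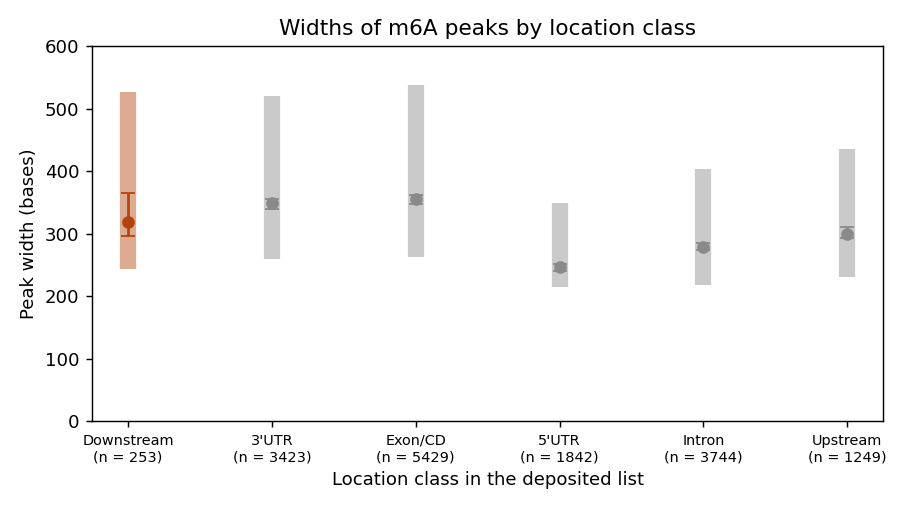
Width in bases of the peaks in each of the 6 location classes, with medians as points, 95% intervals of the median as whiskers and the range between quartiles as bars. The Downstream median of 318 bases has an interval that contains the 3′UTR, coding-exon and Upstream medians, and it lies above the intron and 5′UTR medians.

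The widest Downstream peak, of 1447 bases, belonged to PPP2R3B, a regulatory subunit of protein phosphatase 2A, on chromosome Y. PPP2R3B lies in the pseudoautosomal region that X and Y share, and had 2 more Downstream peaks of 349 and 854 bases on chromosome X. Reads of the 2 copies are near identical, so the 3 peaks cannot be counted as independent regions. RARRES2, which encodes the secreted chemerin, had a peak of 1312 bases, WDR88 1309, the pseudogene record LOC388906 1240 and ICOSLG, the ligand of the T-cell costimulator ICOS, 1186. Among the 5, LOC388906 and ICOSLG also had a 3′UTR peak. Peaks of 199 bases named by the same rule were those of ARHGEF18, ZNF791, ZNF669, CCDC114 and HRK, an activator of apoptosis.

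Most hosts had a single Downstream peak: 229 had 1, 9 had 2 and 2 had 3. In the 11 hosts with several, at least 2 peaks lay next to each other, 139 to 400 bases apart. BCL7C (chromosome 16, minus strand) had peaks of 359 and 505 bases separated by 139 bases, 59747 and 59176 bases from the annotated start. NME3, a nucleoside diphosphate kinase, had peaks of 262 and 260 bases separated by 174. TMEM102 had 204 and 246 bases separated by 170, and OPLAH, 5-oxoprolinase, 258 and 797 bases separated by 189. FCGR1B, which shares near-identical sequence with the other FCGR1 genes so that its reads may be split among them, had 302 and 316 bases separated by 172. The piRNA record DQ590589 is listed at loci on chromosomes 2 and 9, so its 3 peaks do not come from 1 place.

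The distance from the annotated start to the peak centre was 8049 bases in the median (interval 5195 to 10317), with quartiles of 2187 and 28407 and a range of 36 to 431407. In 3′UTR peaks the median was 22079 bases. The small RNA hosts had distances of 36 to 1021 bases. With RefSeq mRNA hosts alone the median was 14647 bases for Downstream and 28554 for 3′UTR peaks. Of the 253 peaks, 36 lay within 1000 bases of the start, 103 between 1000 and 10000, another 103 between 10000 and 100000, and 11 farther. The distance includes introns and so reflects gene length as much as the position of the end.

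**Figure D2:**
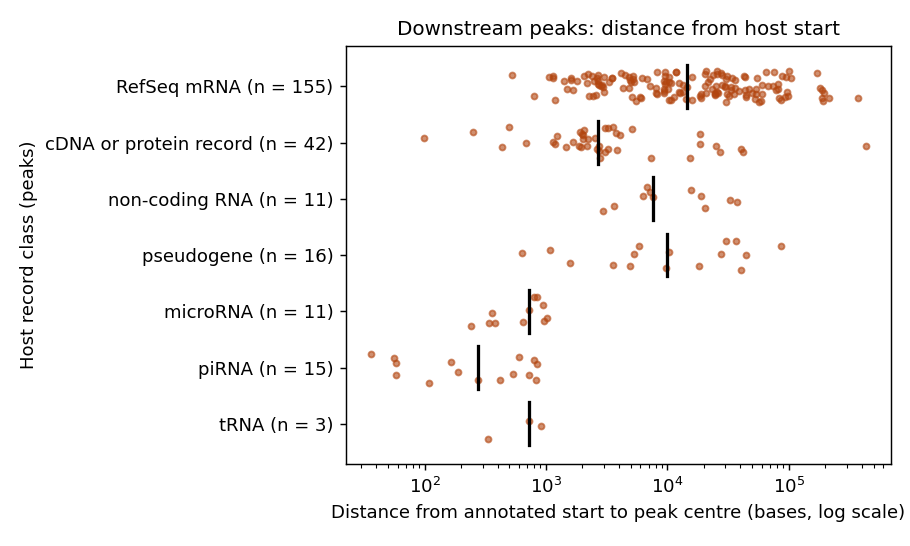
Distance in bases (log scale) from the annotated start to the centre of each Downstream peak, by the kind of record that hosts it; each point is 1 peak and the black line the median. RefSeq mRNA hosts centred on 14647 bases, while microRNA, piRNA and tRNA hosts all lay at 36 to 1021.

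A 3′UTR peak in the same gene was the exception. It was present for 46 of the 253 peaks (18.2%, Wilson interval 13.9 to 23.4), in 46 different hosts and each time on the same transcript. The share was like that of the other classes, in which a 3′UTR peak accompanied 21.9% of coding-exon, 19.9% of intron, 16.6% of 5′UTR and 22.7% of Upstream peaks. Restricted to RefSeq mRNA hosts it was 28 of 155 (18.1%). A peak of any other class was present in the same gene for 135 Downstream peaks (53.4%, interval 47.2 to 59.4), most often in a coding exon (50 peaks, 19.8%), followed by the 46 with a 3′UTR peak and 43 with an intron peak (17.0%). For the remaining 118 peaks, in 110 hosts, the gene had no peak of another class.

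All 46 Downstream peaks lay beyond the 3′UTR peak of their gene in the direction of transcription. That order is fixed by the classes, since a 3′UTR peak lies before the annotated end of the same transcript. The edges were 624.5 bases apart in the median (interval 383 to 791, quartiles 351 and 936), 21 pairs lay within 500 bases and 35 within 1000. Among the smallest gaps were 94 bases in AF116693, 96 in HOXA6, a homeobox gene, 121 in ABO, the blood group glycosyltransferase gene, 126 in C10orf114 and 174 in RPP25, a subunit of RNase P. There were 5 pairs more than 2000 bases apart: 2922 bases in USP22, a deubiquitinase of the SAGA complex, 3307 in UBA6, a ubiquitin-activating enzyme, 4139 in FLJ45340, 4357 in the dynactin subunit gene DCTN5 and 6373 in BC113052. The Downstream peak was the wider of the pair in 20 of 46, with medians of 339.5 bases for the Downstream and 382.5 for the 3′UTR peaks.

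**Figure D3:**
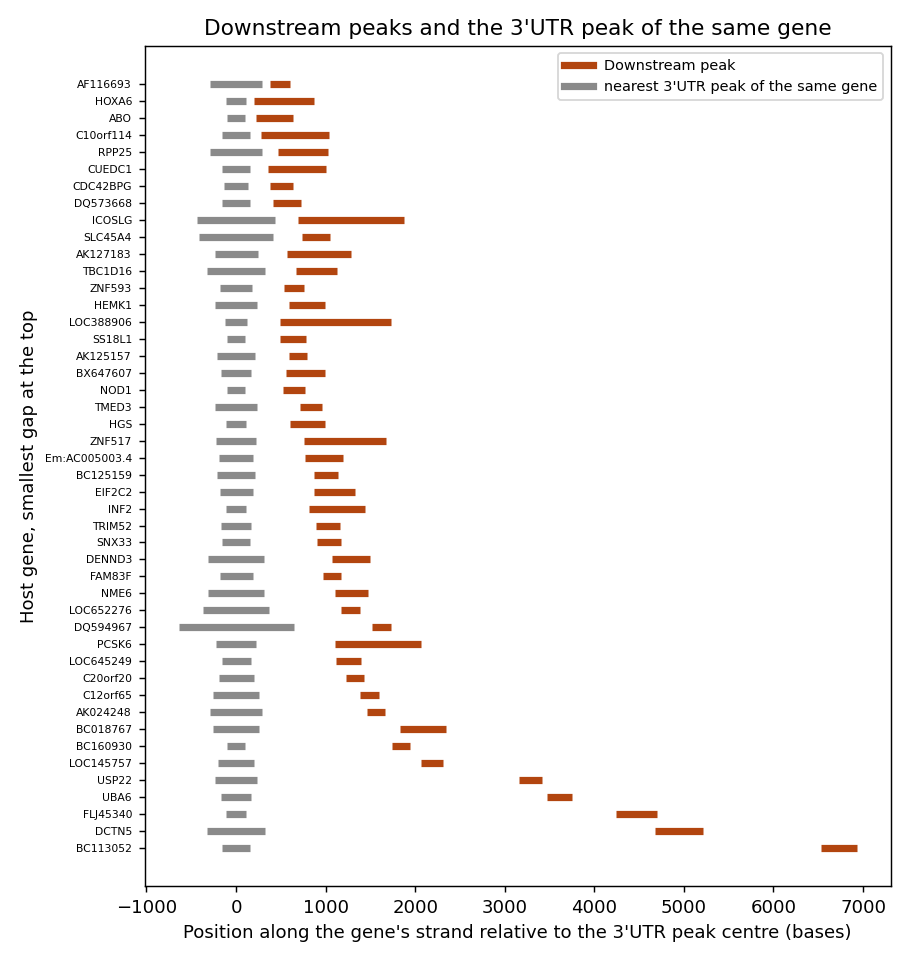
Position in bases along the direction of transcription of each Downstream peak and of the nearest 3′UTR peak of the same gene, centred on the 3′UTR peak; 1 line per host, 46 hosts, bar lengths to scale. All 46 Downstream peaks lie to the right, as the class definitions require. In 20 the centre lies within 1000 bases of the 3′UTR peak centre, and the centre of BC113052 lies farthest at 6730.5.

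Close peaks mostly belonged to the same gene. The nearest peak of any class lay within 1000 bases for 102 of 252 Downstream peaks (40.5%, interval 34.6 to 46.6), against 39.1% of 3′UTR peaks; 1 Downstream peak had no other peak on its contig. That nearest peak belonged to the same gene in 86 of the 102 and to another gene in 16, of which 15 lay on the same strand and 9 were of the Upstream class of that gene. The HOXA6 peak lay 77 bases from an Upstream peak of HOXA5, the next gene of the HOXA cluster. The peak beyond CPSF3, the endonuclease that cleaves pre-mRNA ahead of polyadenylation, lay 197 bases from an Upstream peak of IAH1, and that beyond CD68 290 bases from an Upstream peak of MPDU1. The peak beyond UFD1L, a cofactor in ubiquitin-dependent degradation, lay 489 bases from a 5′UTR peak of HIRA, a histone chaperone. For such pairs the list gives no means of saying which transcript carried the methylated RNA. At the other extreme, 107 Downstream peaks had no other peak within 5000 bases and 38 none within 50000.

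The order of genes in RefSeq was used to describe what lay beyond the hosts, with overlaps counted on either strand. Host ends were those of RefSeq and were not compared with the transcript ends behind the peak classes. The RefSeq end lay inside another gene for 63 of 176 Downstream hosts that could be placed (35.8%, interval 29.1 to 43.1), against 22.5% of 3′UTR hosts. With RefSeq mRNA hosts alone the shares were 29.0% for Downstream (interval 22.2 to 36.8) and 21.4% for 3′UTR hosts. Hosts of intron peaks had 28.8% in the same restriction, which lies inside the Downstream interval. A protein-coding gene enclosed the whole host for 18 of the 176 Downstream hosts (10.2%), against 2.66% of 3′UTR hosts; 10 of the peaks with such hosts were those of microRNA genes. With RefSeq mRNA hosts alone the shares were 3.45% for Downstream (interval 1.48 to 7.82) and 2.07% for 3′UTR hosts, which lies inside that interval. Where the next gene's strand was known, it was the host's own strand in 56 of 107 cases (52.3%, interval 43.0 to 61.6). With protein-coding neighbours only it was so in 86 of 145 (59.3%, interval 51.2 to 67.0). No other class was set beside these shares. Chromosomes 1 and 16 held the most Downstream peaks, 24 each (9.49%, interval 6.46 to 13.7). Chromosome 1 held 9.72% of all 15940 peaks. Chromosome 16, picked out after the counts were seen, held 5.83% of all peaks and 6.66% of 3′UTR peaks, and the last lies inside the Downstream interval; evenness over chromosomes was not tested.

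Gene families were counted beside all genes with a peak, of which 240 of 8906 (2.69%) had a Downstream one. Of 22 histone genes with a peak of any class, 5 had a Downstream one (22.7%, interval 10.1 to 43.4; HIST1H2AG, HIST1H2BG, HIST2H3C, HIST3H2A and H2AFB2), 529 to 1398 bases from the start, and none of these had a 3′UTR peak. Replication-dependent histone mRNAs end in a stem-loop in place of a poly(A) tail, while the libraries were made from polyadenylated RNA. The family was taken by the start of the symbol, which genes outside it may share, and not by that property. Whether the property or gene length bears on these peaks was not tested. HIST3H2A had a signal of 14.6 in knockdown 1 and 21.6 in knockdown 2, against 21.6 in the control, and HIST1H2AG 7.06 and 5.38, against 8.12; reads of histone genes may be shared with near-identical copies. Zinc finger genes named ZNF, which encode the largest family of human transcription factors, had a Downstream peak in 8 of 328 hosts with any peak (2.44%, interval 1.24 to 4.74), near the share over all hosts. In 5 of these 8 the nearest peak was in a coding exon of the same gene, as in ZNF669, 280 bases away.

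Other groups were drawn up after the hosts had been listed. A group of 8 hosts from the ubiquitin and proteasome system, not a full list of such hosts, held ANAPC11 and RBX1, RING subunits of ubiquitin ligases, the proteasome subunit PSMD7, and RBCK1, UBA6, UFD1L, USP22 and USP45. Their median signal was 86.9 in knockdown 1 and 75.9 in knockdown 2, against 85.4 in the control. Another 10 encode homeobox or other developmental transcription factors, among them HOXA6, NKX6-1, SALL4, SP9, LHX5 and TEAD4. Of these 10, 5 had a control signal of at least 1, against 82.9% of the 146 listed hosts. Their median signal was 0.9 in knockdown 1 and 1.405 in knockdown 2, against 0.93 in the control. TEAD4, a DNA-binding partner of YAP1, had the highest control signal of the 10. It was at 19.4 and 18.2 in the knockdown libraries, against 15.8 in the control. Among the lists of pathway genes, 24 symbols stood for m6A writers, readers and erasers, with CBLL1 also entered under its synonym HAKAI. None of these had a Downstream peak although 16 genes had a peak of some class. The same held for 22 Notch pathway genes (16 with any peak) and 19 squamous epithelial genes (10 with any peak), and of the 24 genes listed for 3′ end processing (12 with any peak) CPSF3 was the 1 host; SSU72, described with the highest hosts, was not on that list. Lists of this length are too short to be set against the share over all hosts.

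The RNA-seq table listed 18249 genes as an expression signal whose unit is not named, so a level set beside that of another gene may reflect length as well as abundance. Of the 240 hosts it held 146 (60.8%), 144 of them hosted through RefSeq mRNA records, 1 through a cDNA record and 1 through a non-coding RNA record. None of the microRNA, piRNA, tRNA or pseudogene records was in the table. RefSeq types 3 of the 146 as not coding: ABO and FCGR1B as transcribed pseudogenes and C10orf114 as a long non-coding RNA. METTL3 was at 8.35 in knockdown 1 and 4.99 in knockdown 2, against 20.8 in the control. All 8 squamous epithelial markers were at 1 or above in the control, and their summed signal was 3489 in knockdown 1 and 2147 in knockdown 2, against 3565 in the control. Knockdown 2 stood apart: 29 genes had a signal of at least 5 there and under 0.5 in both other libraries, among them CDKN2A at 144.7, against 0 in knockdown 1 and 0.04 in the control, and of the 4 mesenchymal markers VIM was at 311 there, against 87.0 in the control, while COL1A1 was at 3.59, against 3.34, and COL1A2 and PDGFRB were at 0.07 or below in all 3 libraries. No gene had that pattern for knockdown 1 or the control, and no Downstream host was among the 29. Values that rest on both knockdown libraries are therefore also given for each.

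Most listed hosts were expressed. The table listed 60.8% of Downstream hosts, against 86.3% of 3′UTR and 97.9% of coding-exon hosts. Unlisted hosts drop out unevenly, so the values below describe listed hosts and do not compare whole classes. A control signal of at least 1 was found for 121 of the 146 (82.9%, interval 75.9 to 88.1), against 88.8% of 3′UTR hosts, 86.8% of coding-exon hosts and 63.9% of all genes in the table. Their median signal was 5.61 in knockdown 1 and 5.45 in knockdown 2, against 6.39 in the control (interval 3.61 to 8.12); 3′UTR hosts had 7.88, 8.15 and 8.04. The Downstream interval in the control contains the 3′UTR median. At this cut, listed hosts with a 3′UTR peak were more often expressed. All 29 that had one had a control signal of at least 1 (interval 88.3 to 100%), against 92 of 117 without one (78.6%, interval 70.4 to 85.1). The control medians had overlapping intervals, 7.7 (5.43 to 20.4) with a 3′UTR peak and 4.6 (3.09 to 8.12) without. The contrast was not particular to 3′UTR peaks. With a peak of any other class, 82 of 93 listed hosts reached 1 (88.2%, interval 80.1 to 93.3). Without one, 39 of 53 did (73.6%, interval 60.4 to 83.6). Control medians in these 2 sets were 6.34 with such a peak and 7.42 without. Peak width and control signal showed no relation across 153 peaks (Spearman's rho -0.041, a description, since peaks of 1 gene share a value).

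**Figure D4:**
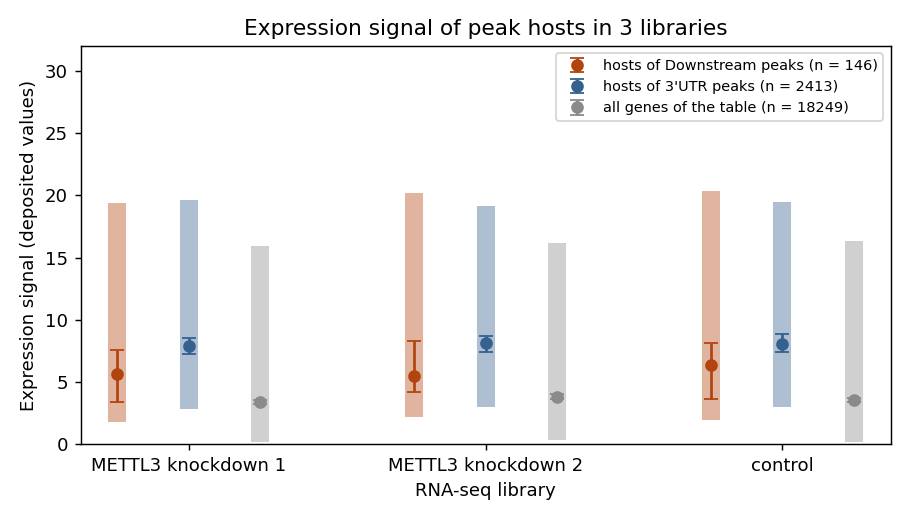
Expression signal as deposited in knockdown 1, knockdown 2 and the control, for hosts of Downstream peaks, hosts of 3′UTR peaks and all genes of the table; points are medians, whiskers 95% intervals of the median and bars the range between quartiles over genes. Medians of listed Downstream hosts lie between those of all genes and of listed 3′UTR hosts in each library, and the Downstream and 3′UTR whiskers overlap.

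The host with the highest control signal was TPT1, which encodes a translationally controlled tumour protein, at 407 in knockdown 1 and 496 in knockdown 2, against 387 in the control. BCL7C followed at 236 and 164 in the knockdown libraries, against 187 in the control, which lies between them. SSU72, a phosphatase of the RNA polymerase II tail that acts in 3′ end processing, had 148 and 163, against 145. RBX1 had 163 and 114, against 144, MEA1 174 and 141, against 142, and ANAPC11 128 and 107, against 137. PSMD7 had 105 and 93.5, against 115, and COMMD4 130 and 97.2, against 95.03. None of the 8 had a 3′UTR peak, and 3 of them (BCL7C, MEA1 and PSMD7) had a peak of another class.

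No host passed the test of knockdown against control, a test that METTL3 itself did not pass. The fit was made with limma on log2(value + 1) over the 12375 genes with a signal of at least 1 in at least 1 library, 123 of them Downstream hosts. With 1 control library and 1 residual degree of freedom the spread came from the 2 knockdown libraries, whose titles end in sh1 and sh2. The p-values therefore measure a spread that holds any difference between the 2 hairpins, not one between replicates of 1 hairpin. Nothing states that libraries were separate cultures, so part of the spread may also be technical. At an adjusted p under 0.05 there were 0 hosts in either direction, against 0% of the 12375 genes (lowest Benjamini-Hochberg adjusted p of limma 1). At an unadjusted limma p under 0.05 there was 1 host, CD68, against 1.31% of all genes. The hosts' median difference on the log2 scale was -0.04 in knockdown 1 and -0.03 in knockdown 2, against -0.01 and 0.00 over all genes tested. Of the 123 hosts, 29 were higher in both knockdown libraries, against 28% of all genes, and 43 were lower in both, against 30.4%; both differences share the 1 control library. In bulk RNA, fewer expressing cells and less RNA per cell cannot be told apart.

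No host was at least 2-fold higher in both knockdown libraries (0.0323% of all genes) or at least 2-fold lower in both (0.097%). CD68, a lysosomal glycoprotein used as a macrophage marker, had 7.88 in knockdown 1 and 9.93 in knockdown 2, against 18.8 in the control. It was below the control in both libraries and was the single host at least 2-fold lower in knockdown 1 (0.404% of all genes; log2 difference -1.16, and -0.86 in knockdown 2). Its limma log2 fold change was -1.01 with a standard error of 0.26, an unadjusted p of 0.00789 and an adjusted p of 1. The other leukocyte markers, PTPRC, CD3E and LYZ, were at 0.06 to 0.62 in all 3 libraries. No host was at least 2-fold higher in knockdown 1 (0.242% of all genes).

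In knockdown 2, 1 host was at least 2-fold lower (0.978% of all genes) and 2 were at least 2-fold higher (3.64%). IL7R, the receptor of interleukin 7, had 8.59 in knockdown 1 and 2.74 in knockdown 2, against 10.8 in the control, so that the low value came from knockdown 2. RTN4RL2, a Nogo receptor homologue, had 2.73 and 9.32 in the knockdown libraries, against 4.08 in the control, which lies between them. HRK had 0.22 and 1.95, against 0.19, where a pseudocount of 1 weighs heavily. The shares of hosts past 2-fold, 1 and 2 of 123, were near or below those of all genes.

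**Figure D5:**
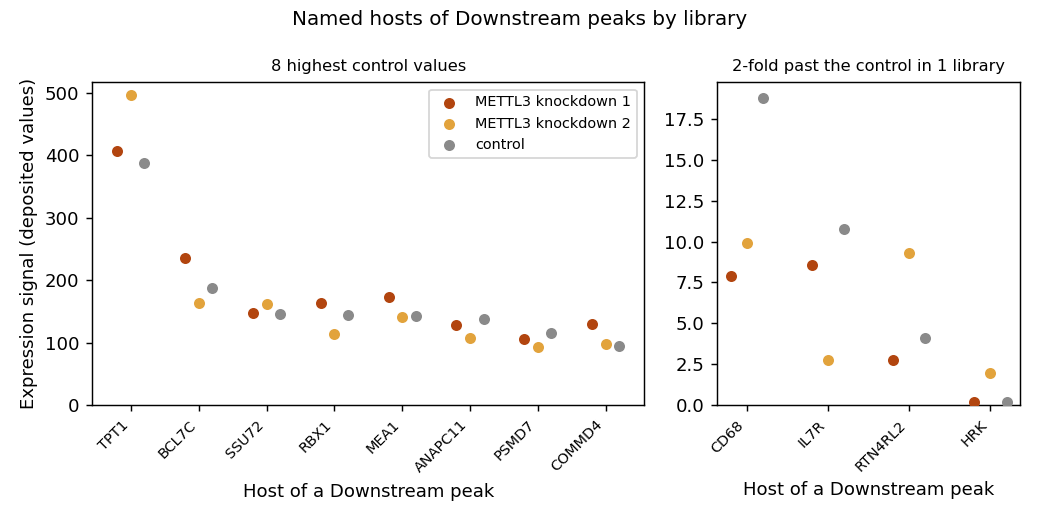
Expression signal as deposited for the 8 Downstream hosts with the highest control signal (left) and for the 4 hosts at least 2-fold from the control in a knockdown library (right), with 1 point per library and no replicates of the control. CD68 is below the control in both knockdown libraries, while RTN4RL2 and HRK are high in knockdown 2 alone and IL7R is low there.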

How the data were processed

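The list of peaks and its classes are the authors' own, deposited as 1 annotated table; MACS2 peak calling, TopHat2 alignment, HTSeq counting and build hg38 are named per the submitters' processing notes, without versions. Positions in the list run past the ends of hg38 chromosomes, so the build was not taken to be hg38 and coordinates are as in the file. Expression values are a signal as deposited by the authors, in an unnamed unit with column sums of 617840.4 (knockdown 1), 627152 (knockdown 2) and 608291 (control); sequencing depth is unknown. Since the table holds no counts, the planned test for normalized values was used: limma 3.58.1 (R 4.3.3), log2(value + 1), mean-variance trend, Benjamini-Hochberg at 0.05, tested on simulated data. No per-sample column was left unused (0).

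Widths are end minus start, gaps run edge to edge, and hosts were matched by symbol through RefSeq synonyms (pandas 2.3.3, scipy 1.17.1, Python 3.11.15). Intervals are 95% Wilson or order-statistic intervals. Named hosts were those with the most Downstream peaks, highest control signal, widest and narrowest peaks, largest and smallest gaps, 2-fold differences and membership of listed families; the ubiquitin, developmental, microRNA and near-gene examples were chosen after their values were seen. The members and lists were chosen with earlier results of these data known.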

Additional observations from a re-analysis of the deposited data

How the results depend on the processing

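Of 90 recomputed values, 51 were medians, shares and counts, and 41 of these stayed within the interval or the 1.5-fold range of the value reported. The other 39 were log2 fold changes of 5 genes, judged by direction alone, which 38 kept; their size moved widely, in HRK from 0.04 to 1.48 and in IL7R from -0.29 to -1.65. With a pseudocount of 0.1 the hosts at least 2-fold different numbered 1 in both knockdown libraries (PNMA6C, listed as PNMA6A in the table, higher by 1.14 and 1.21 on the log2 scale), 3 in knockdown 1 and 6 in knockdown 2; a smaller pseudocount widens the differences of low signals by construction. Counting 2-fold hosts without knockdown 1 or without knockdown 2 gave 3 and 1. RTN4RL2, at a log2 fold change of 0.29, ranged over the same omissions from -0.45 to 1.02. With peaks at least as wide as the list's median, the median width was 507 bases, by construction. The gap to the 3′UTR peak was 1055 bases between centres. Protein-coding hosts were 90.4% by symbol pattern alone, which counts unmatched records as coding. A control signal of at least 5 was found for 53.4% of listed hosts. With RefSeq mRNA hosts only, chosen after seeing the data, the median distance to the start was 14647 bases.

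No paired analysis was possible because the single control library carries no replicate number. A count test was not run, since the table holds no counts, and the limma fit without either knockdown library has no residual degrees of freedom. Depth, peak strength and agreement between the immunoprecipitations are unknown, so no limit of detection is given.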
